A study of Mus musculus with 2 samples.

Results

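Rod bipolar cells carry the signal of rod photoreceptors from the outer to the inner retina. In the table of single-cell counts studied here, members were chosen by their measured counts, as the cells with at least 4 UMIs (unique molecular identifiers, counted molecules) of Prkca and at least 4 of Trpm1. Such a cell also had at most 1 UMI of the cone bipolar gene Scgn, under 1% of its UMIs from the cone genes Pde6h, Arr3 and Gnat2, at least 800 UMIs and at most 20% of UMIs from mitochondrially encoded genes. These limits selected 1574 of 19562 cells, 830 of 7169 in the control library and 744 of 12393 in the STZ library. No clustering was used.

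Retinas of male C57BL/6 mice were profiled with the 10x Genomics 3′ single-cell method. In the STZ group, mice aged 3 to 5 weeks were injected intraperitoneally with 55 mg/kg streptozotocin, a toxin of pancreatic beta cells, and those past 300 mg/dL glucose in blood were taken as diabetic and studied after 25 weeks of high glucose. The control group was untreated. Each group is 1 library made from 3 pooled retinas, so mice cannot be told apart, there is no replicate check, no test was made, and each value describes these 2 libraries. All intervals are at 95% and cover counting error only.

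As background, a rod bipolar cell receives glutamate from rods in darkness through the receptor mGluR6, encoded by Grm6. The receptor acts through a G protein to hold the cation channel TRPM1 shut, and light lets the channel open, so the cell is depolarised by light. Its axon ends in large ribbon synapses onto amacrine cells, and protein kinase C alpha, the product of Prkca, is its classical label.

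The selected cells matched their name by genes that took no part in the selection. Car8, a carbonic anhydrase-related protein, stood at 1268 CPM (the gene's UMIs per 1000000 UMIs of the selected cells) in control and 1087 CPM in STZ. In cone bipolar cells, taken as cells with at least 3 UMIs of Scgn and at most 1 of Prkca, it stood at 35.4 and 67.0 CPM. Sebox, a homeobox gene, stood at 1029 and 794 CPM against 15.4 and 12.3 CPM in cone bipolar cells. Vstm2b, a membrane protein of the immunoglobulin family, stood at 784 and 619 CPM against 78.6 and 84.8 CPM. Vsx1, a transcription factor of cone bipolar cells, was in 0.368% of the control and 0.549% of the STZ cells after each cell had been thinned to 2000 UMIs, against 35.0% and 31.4% of cone bipolar cells. In the rod cells of the same libraries Vsx1 was in 0% and 1.504%, so the rod bipolar shares lay in the range of background. Not every gene listed as a cone bipolar marker was lower in the selected cells. Igfn1, also on that list, stood at 50.9 CPM (control) and 51.7 CPM (STZ), against 7.27 and 10.2 CPM in cone bipolar cells.

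The genes that set the limits are given as a description. Prkca stood at 2293 CPM (control) and 2529 CPM (STZ), and Trpm1 at 4558 and 2916 CPM. Just inside the limit, 48 control and 35 STZ cells held exactly 4 UMIs of Prkca, and just outside it 34 and 33 cells held 3. For Trpm1, 0 control and 32 STZ cells held 4 UMIs, and 0 and 19 held 3. No control cell that met the other limits thus stood at the Trpm1 limit, whereas the limit cut into the STZ cells. The STZ cells with 3 UMIs of Trpm1 had 979 CPM of Car8 and 15720 CPM of Pcp2, and the STZ cells selected had 1087 and 15330 CPM.

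The selected cells had a median of 4760 UMIs and 2098 genes in control and 4570 UMIs and 2007 genes in STZ, and their UMIs summed to 3967126 and 3403074. Over all cells of the libraries the median was 3800 and 2062 UMIs. Of the cell barcodes, 21 occurred in both libraries, and 8 of the selected cells carried one.

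Rod bipolar cells made up 16.4% (15.4 to 17.5%, Clopper-Pearson interval) of the 5054 control cells that passed the UMI and mitochondrial limits and 10.8% (10.1 to 11.5%) of the 6900 STZ cells. The mitochondrial limit removed far more of the STZ cells that met every other limit. It removed 313 of 1143 such cells in control, or 27.4% (24.8 to 30.1%), and 737 of 1481 in STZ, or 49.8% (47.2 to 52.3%). Among cone bipolar cells the same limit removed 8 of 504 (1.59%) and 16 of 595 (2.69%). Without a mitochondrial limit rod bipolar cells were 16.8% (15.9 to 17.7%) of control and 15.3% (14.5 to 16.0%) of STZ cells, and with a limit of 10% they were 10.2% and 3.86%. The lower share in STZ thus moved with the limit.

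**Figure D1:**
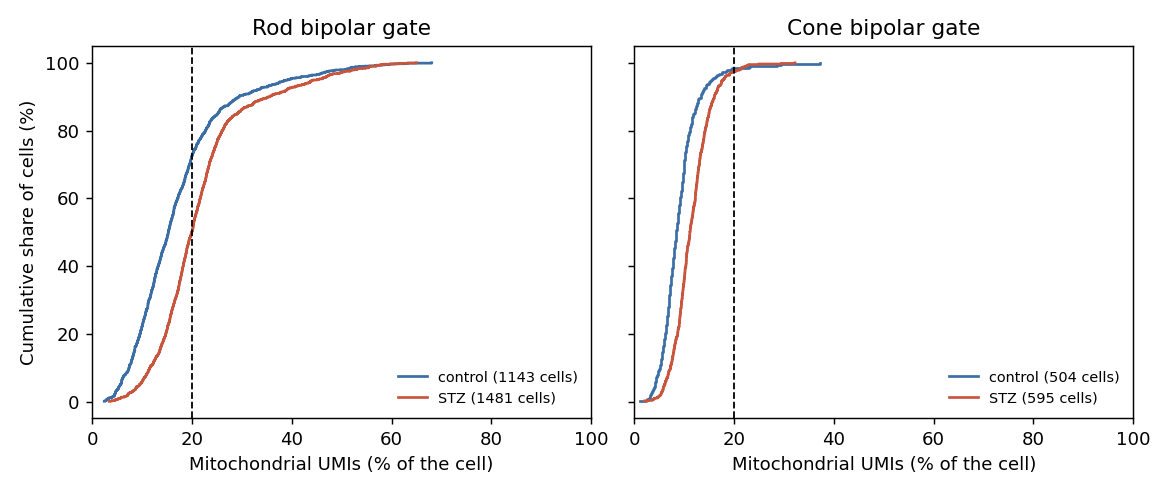
Cumulative share of cells (vertical axis, %) by the share of a cell's UMIs from mitochondrially encoded genes (horizontal axis, %), for cells that met all other limits of the rod bipolar (left) and cone bipolar (right) selection, in control (blue) and STZ (red). The dashed line is the limit of 20%, which 27.4% of the control and 49.8% of the STZ rod bipolar cells exceeded.

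Among the cells kept, the median mitochondrial share was 12.5% in control and 15.7% in STZ (cone bipolar cells, 8.41% and 11.1%). The 13 mitochondrially encoded genes had a median log2 ratio of STZ over control of 0.10, and none was past 1.5-fold. The selection itself capped the share of UMIs from mitochondrially encoded genes in each cell. That cap removed 27.4% of the control and 49.8% of the STZ cells that met every other limit. The levels of these genes in the cells kept are therefore given as a description, and nothing is read from them. mt-Co2, a subunit of cytochrome oxidase, stood at 16980 CPM (control) and 23880 CPM (STZ). mt-Atp6, of the ATP synthase, stood at 19200 and 24740 CPM, and mt-Nd1, of complex I, at 5738 and 7391 CPM. mt-Nd4l, also of complex I, was on the other side at 721 and 558 CPM. The nuclear genes of the respiratory chain lay close to their control level, with a median of 0.07 over 73 genes and 1 gene past 1.5-fold, Uqcrc1 of complex III, at 74.6 and 116 CPM.

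Over all genes, 7971 were measured, meaning at least 10 CPM over both libraries together and at least 20 UMIs. At 1.5-fold or more, 444 were higher in STZ (5.57%) and 468 lower (5.87%), and the median log2 ratio was -0.01. The interval of the ratio lay wholly past 1.5-fold for 67 genes higher and 82 lower. Of the 1740 measured genes with at least 100 CPM, 24 were higher and 61 lower, so most of the genes past the fold were of low level. Of the 444 higher genes 119 stood under 10 CPM in control, and of the 468 lower genes 106 stood under it in STZ, so that these were measured only through the library in which they were high. The shares of 5.57% and 5.87% are the background against which the counts of each group below are read.

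**Figure D2:**
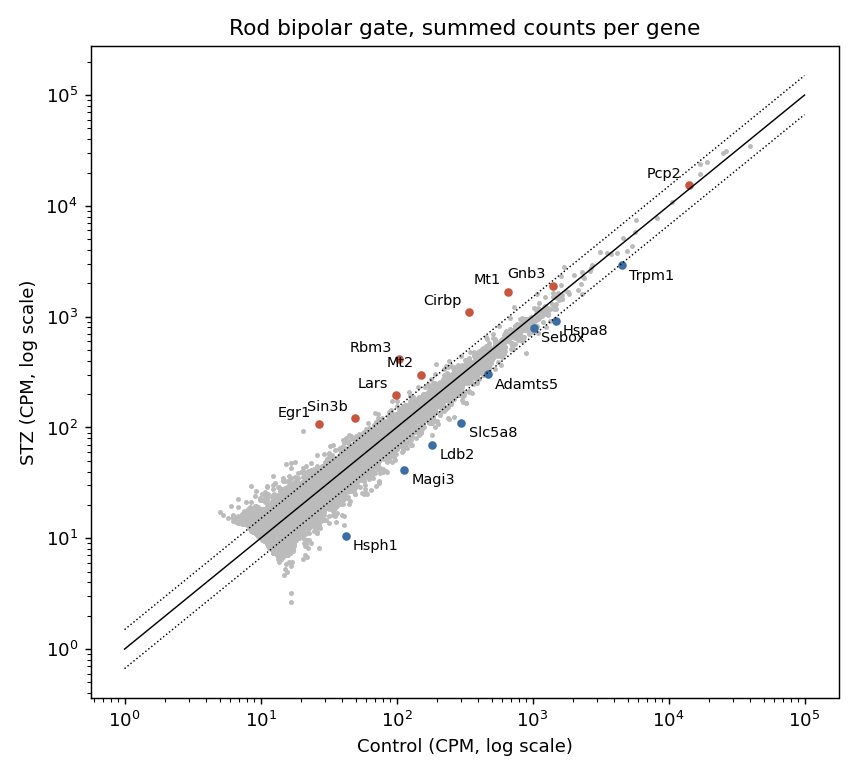
Each grey point is a measured gene, at its summed level in control (horizontal axis) and STZ (vertical axis) rod bipolar cells, in CPM on log scales, with named genes in red where STZ was higher and in blue where it was lower. The solid line marks equal levels and the dotted lines 1.5-fold. Egr1 and Rbm3 stand 4.04-fold and 3.98-fold above the line of equal levels, and Trpm1 lies just under the lower dotted line.

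The genes of the light-response pathway stayed within 1.5-fold of their control level, apart from 3 members. Of the 18 genes listed 16 were measured, none was at 1.5-fold higher and 3 were lower, with a median of 0.00. Trpm1, one of the 3, took part in the selection. Of the other 15 genes 2 were lower, with a median of 0.04. The receptor gene Grm6 stood at 515 CPM (control) and 503 CPM (STZ). Gnao1, the alpha subunit of the G protein, stood at 1403 and 1301 CPM, and Gng13, its gamma subunit, at 5628 and 5790 CPM. Gnb3, the beta subunit, stood at 1404 and 1911 CPM and was 1.36-fold higher (1.31 to 1.41). The receptor and the 3 subunits of its G protein thus stayed within 1.5-fold.

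Trpm1 was 1.56-fold lower, a value from which nothing is read. Rgs11, which speeds the shut-off of the G protein, stood at 301 CPM (control) and 192 CPM (STZ), 1.57-fold lower (1.43 to 1.73). Its partner in that role, Rgs7, stood at 289 and 234 CPM. Gnb5, which both need, stood at 412 and 456 CPM, and the anchor gene Rgs9bp at 65.3 and 79.1 CPM. Gpr179, which places these regulators at the dendrite tips, stood at 715 and 511 CPM, and nyctalopin, Nyx, which the channel needs to sit there, at 73.1 and 47.9 CPM, 1.53-fold lower (1.26 to 1.86). Rgs11, Gpr179 and Nyx were on the same side in cone bipolar cells, at 186 and 140 CPM, 277 and 198 CPM, and 81.8 and 48.3 CPM.

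Pcp2, a modulator of G proteins, stood at 14110 and 15330 CPM and was in 100% of thinned cells of both libraries. The calmodulin genes Calm2 and Calm3 stood at 533 and 630 CPM and at 304 and 312 CPM. Ric8b, a chaperone for G protein alpha subunits, stood at 27.5 and 26.5 CPM. Lrit3 and Ret were listed with the pathway but fell under the minimum for a measured gene.

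**Figure D3:**
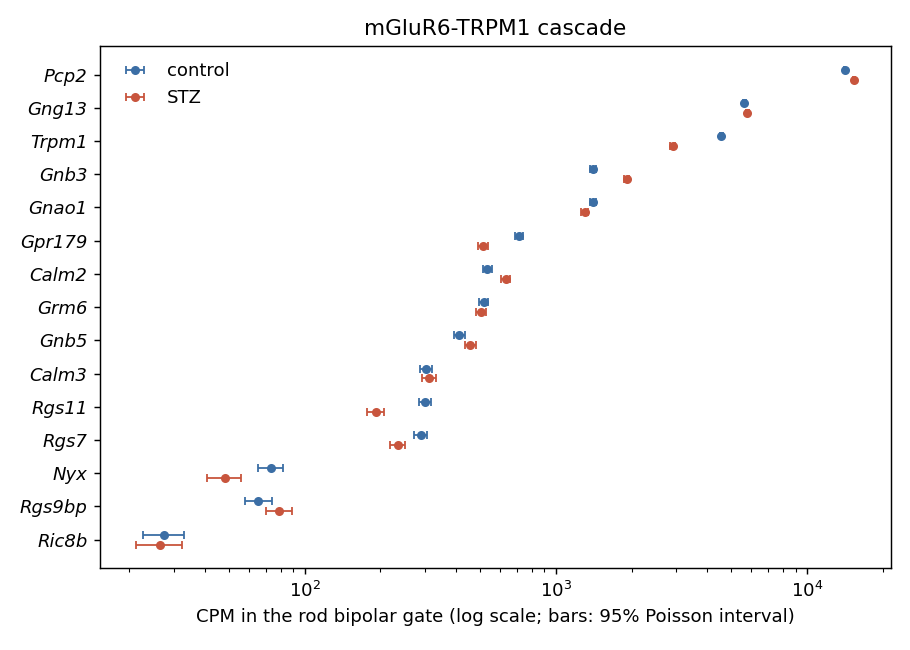
Level of 15 measured genes of the mGluR6 and TRPM1 cascade (rows) in the rod bipolar cells of control (blue) and STZ (red), in CPM on a log scale, with exact Poisson intervals as bars. Trpm1, Rgs11 and Nyx were at least 1.5-fold lower in STZ, and Grm6, Gng13, Gnao1 and Gnb3 stayed within 1.5-fold.

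The Trpm1 gene lies on chromosome 7 from 64153835 to 64269775 (mm10, forward strand, protein-coding), and RefSeq gives it 2 start sites in the table used. The 250 bases before the first start, chr7:64153585-64153834 in GRCm38.p6 on the forward strand, are shown because Trpm1 encodes the channel of the pathway and is one of the genes that chose the cells. Capitals mark the one match to TAATCC, the letters bound by the retinal homeobox factors CRX and OTX2, searched on both strands and here read on the reverse strand, 34 bases before the start.

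Trpm1: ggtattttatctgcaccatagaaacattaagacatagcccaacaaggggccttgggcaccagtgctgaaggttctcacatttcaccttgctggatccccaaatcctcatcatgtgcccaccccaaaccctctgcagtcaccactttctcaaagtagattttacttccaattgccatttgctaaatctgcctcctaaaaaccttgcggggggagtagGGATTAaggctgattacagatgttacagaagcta

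The window before the second start held no match. Of all 32851 windows of that length in the table, 6.25% held one, so a match in a single window is a description only. The genes of those factors stood at 422 and 426 CPM (Otx2) and 168 and 195 CPM (Crx).

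The transcription factors of bipolar cells showed no member past 1.5-fold among 13 measured, with a median of -0.03. Isl1, a factor of ON bipolar cells, stood at 739 and 825 CPM, Prox1 at 1069 and 1047 CPM, Bhlhe23, required for rod bipolar cells, at 197 and 205 CPM and Six3 at 88.2 and 118 CPM. On the other side stood Neurod4 at 481 and 352 CPM, St18 at 151 and 103 CPM, Prdm8, required for rod bipolar cells, at 376 and 308 CPM, Neurod1 at 350 and 298 CPM and Lmo4 at 67.3 and 52.9 CPM.

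The synapse genes stayed within 1.5-fold. All 34 measured genes of the ribbon synapse and of transmitter release did so, 23 of them below 0, with a median of -0.12. Cplx3, the complexin of ribbon synapses and the most abundant of them, stood at 1855 CPM (control) and 1613 CPM (STZ). Erc1, of the active zone, stood at 35.3 and 24.1 CPM, Dnm1, which pinches off vesicles, at 213 and 161 CPM, and Cplx4 at 24.0 and 31.7 CPM.

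The receptors through which amacrine cells inhibit the axon terminal had a median of -0.16 over 14 measured genes of receptors and chloride transport, of which 1 was higher and 1 lower. Gabrr1, of the slow GABA receptor of this terminal, stood at 404 CPM (control) and 314 CPM (STZ). The chloride importer gene Slc12a2 was higher, at 21.9 and 32.9 CPM (log2 ratio -0.01 when thinned to 800 UMIs), and the exporter gene Slc12a5 stood at 686 and 776 CPM.

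Of 10 genes of calcium handling, 1 was past 1.5-fold, Camk2g, a kinase subunit, at 13.6 and 29.1 CPM. Pcp4, a calmodulin-binding protein and the most abundant of them, stood at 4945 and 3892 CPM. Of 13 genes of the sodium pump and channels, 1 was past 1.5-fold, the sodium channel gene Scn2a, at 25.5 and 38.2 CPM, and the potassium channel gene Kcnma1 stood at 1302 and 1082 CPM. Of 23 adhesion and wiring genes, 2 were lower and 2 higher. Ntng1, an adhesion protein of the axon, stood at 1264 and 803 CPM, 1.58-fold lower (1.503 to 1.65), and Dscaml1 at 109 and 69.6 CPM. Nrxn2, a neurexin, stood at 20.9 and 39.4 CPM and Cadm2 at 31.0 and 52.3 CPM.

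Protein folding genes and immediate-early genes had the medians furthest from 0 among the lists that do not mark a cell type. Of 18 measured heat shock genes, 6 were lower, none was higher and all 18 were below 0, with a median of -0.50. Hsph1, a co-chaperone of the Hsp70 family, stood at 42.4 CPM (control) and 10.6 CPM (STZ), 4.00-fold lower (2.78 to 5.91). Chordc1, an Hsp90 co-chaperone, stood at 74.6 and 31.7 CPM, Ahsa1, which activates Hsp90, at 73.1 and 42.6 CPM, and Hspa8, the constitutive Hsp70, at 1483 and 915 CPM. Hsp90aa1, the most abundant member, stood at 1651 and 1444 CPM. Cone bipolar cells, in which 5.78% of 8757 measured genes were higher and 6.47% lower, had 0 higher and 4 lower of the 18, with a median of -0.27.

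Of 23 measured genes of the endoplasmic reticulum chaperones and the unfolded protein response, 7 were lower and 1 higher, with a median of -0.44. Of the 7 lower genes 1 stood under 10 CPM in STZ and was measured only through control. Hspa5, the chaperone BiP, stood at 323 CPM (control) and 165 CPM (STZ), 1.96-fold lower (1.77 to 2.17), and was in 44.0% and 26.5% of thinned cells. Pdia6, a disulfide isomerase, stood at 97.1 and 51.1 CPM, and Xbp1, a transcription factor of the response, at 130 and 69.9 CPM. Hsp90b1, the most abundant member, stood at 558 and 388 CPM. Selenos, which helps move misfolded proteins out of the reticulum, was the one higher, at 69.1 and 135 CPM. In cone bipolar cells 1 of 24 was higher and 9 were lower, with a median of -0.46, and Hspa5 stood at 606 and 223 CPM. Among cells with at most 10% mitochondrial UMIs (254 control, 87 STZ) the rod bipolar median was -0.06. The 11 genes of the integrated stress response had a median of 0.03 and 1 member past 1.5-fold, Eif2ak3, the kinase PERK, at 18.4 and 12.1 CPM.

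The ER stress element, CCAAT and CCACG with 9 bases of any kind between them, was searched on both strands of the 250 bases before each start in RefSeq (GRCm38.p6). It occurred in 37 of 32851 windows (0.113%) and, counted by gene, in 35 of 27025 genes (0.13%). Of the 19 measured genes of the group that had a window 8 held it, 4 of them among the 6 lower genes with a window. Of these 4, Creld2 was measured only through control, so its part in that count was fixed by the minimum. The stretches below, named for their element after the values had been seen, show the element in capitals with 10 bases on either side, 5′ to 3′ along the gene. In Calr, Creld2 and the second stretch of Hsp90b1 the capitals are its reverse complement.

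Hspa5: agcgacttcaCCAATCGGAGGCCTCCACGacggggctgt

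Pdia6: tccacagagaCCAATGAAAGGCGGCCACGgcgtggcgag

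Calr: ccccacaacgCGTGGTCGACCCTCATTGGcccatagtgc

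Creld2: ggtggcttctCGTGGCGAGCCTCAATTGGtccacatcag

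Hsp90b1 (first): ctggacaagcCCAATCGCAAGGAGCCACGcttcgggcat

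Hsp90b1 (second): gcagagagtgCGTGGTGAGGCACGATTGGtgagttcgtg

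Canx: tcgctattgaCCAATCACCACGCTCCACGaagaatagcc

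Dnajc3: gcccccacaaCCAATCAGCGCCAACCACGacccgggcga

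Syvn1: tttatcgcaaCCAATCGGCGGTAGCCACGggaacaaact

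These lie at chr2:34772015-34772053 (Hspa5), chr12:17266481-17266519 (Pdia6), chr8:84847065-84847103 (Calr), chr15:88819510-88819548 (Creld2), chr10:86705628-86705666 and chr10:86705523-86705561 (Hsp90b1), chr11:50325790-50325828 (Canx), chr14:118937817-118937855 (Dnajc3) and chr19:6046522-6046560 (Syvn1). Calr, Hsp90b1 and Canx are on the reverse strand and the others on the forward strand. Of these genes Hspa5, Pdia6, Calr (302 and 178 CPM) and Creld2 (13.6 and 7.93 CPM) were at least 1.5-fold lower, the last with a log2 ratio of 0.72 at a mitochondrial limit of 10% and 0.16 when thinned to 800 UMIs, Hsp90b1, Canx (392 and 289 CPM) and Syvn1 (19.7 and 13.5 CPM) were under that fold, and Dnajc3 stood at 52.9 and 59.7 CPM. A gene with the element was therefore not always lower. The heat shock element (TTC, GAA and TTC, or GAA, TTC and GAA, with 2 bases of any kind between each, both strands) was in 0.466% of windows and 0.514% of genes. It was in 2 of 14 heat shock genes with a window, Hspd1 and Hspe1, neither past 1.5-fold.

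**Figure D4:**
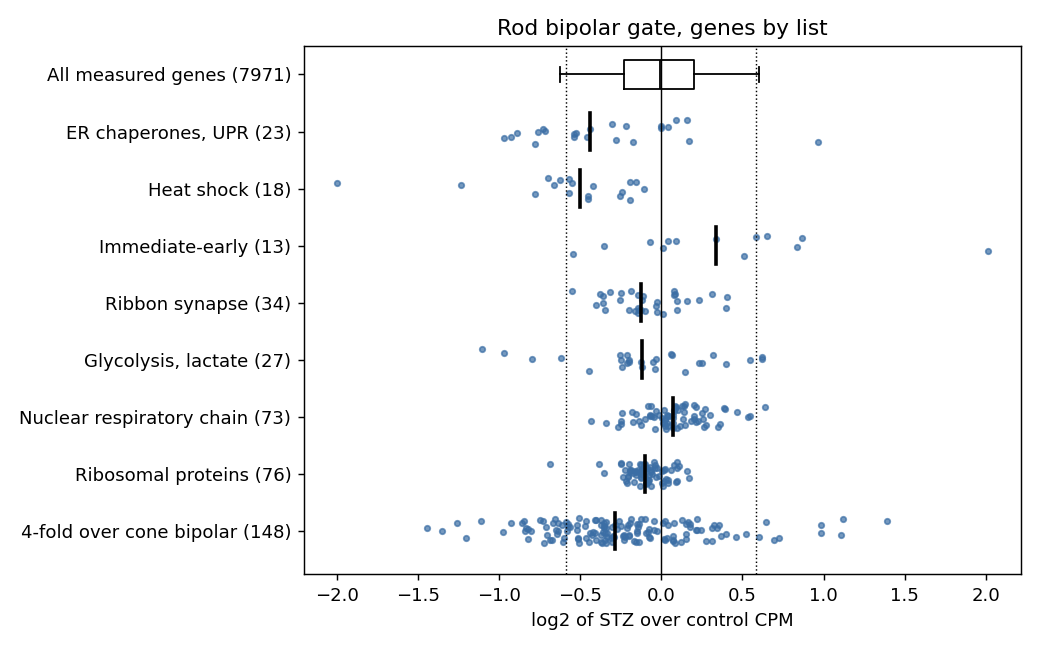
log2 of the STZ over the control level in rod bipolar cells, for each measured gene (blue points) of 8 groups and for all 7971 measured genes (box: quartiles, whiskers: 5th to 95th percentile), with thick black bars at the medians, dotted lines at 1.5-fold and the number of genes in brackets. Heat shock genes and the chaperones of the endoplasmic reticulum have medians of -0.50 and -0.44, and immediate-early genes 0.34.

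Immediate-early genes, which respond within minutes to activity or stress, had 4 of 13 higher, none lower and a median of 0.34. Egr1, a zinc finger factor, stood at 26.7 CPM (control) and 108 CPM (STZ), 4.04-fold higher (3.24 to 5.06). It was in 4.79% (3.43 to 6.49%) of thinned control cells and 14.7% (12.2 to 17.5%) of STZ cells, so most cells held none at this depth. In cone bipolar cells Egr1 stood at 116 and 187 CPM and was in 16.8% and 21.4% of thinned cells. Rods held it in 5.14% and 3.76% of thinned cells and Müller glia in 54.1% and 54.6%. The Müller glia markers measured in rod bipolar cells, 8 of 12 and all above 0, summed to 494 CPM (control) and 736 CPM (STZ), and their part in the Egr1 value was not tested. Jund stood at 192 and 302 CPM, and Fosb and Zfp36 each at 7.56 CPM in control and at 13.8 and 13.5 CPM in STZ, so that both were measured only through STZ and their part in the count of 4 was fixed by the minimum. Btg2, the most abundant member, stood at 211 and 201 CPM, and Fos, named after the values were seen, at 159 and 160 CPM. Among members of at least 50 CPM the median was 0.01, and among cells with at most 10% mitochondrial UMIs Fosb was on the other side, at -0.95.

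Rbm3 and Cirbp, RNA-binding proteins known for their response to cold, were among the higher genes, at 104.6 and 416 CPM and at 343 and 1091 CPM. Rbm3 was in 16.7% and 56.2% of thinned rod bipolar cells, in 18.9% and 60.1% of cone bipolar cells and in 17.7% and 57.1% of rods. Of the 25 genes of their list 3 were higher and 2 lower, with a median of 0.01. Srsf5, a splicing factor, was the other one higher, at 194 and 375 CPM, and Pnisr and Tra2a were lower, at 583 and 364 CPM and at 251 and 163 CPM.

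The metallothionein Mt1, which binds zinc, stood at 662 CPM (control) and 1687 CPM (STZ), 2.55-fold higher (2.43 to 2.67), and Mt2 at 151 and 300 CPM, 1.996-fold higher (1.80 to 2.21). Mt1 was in 66.1% and 90.8% of thinned cells, and in 65.5% and 91.6% of Müller glia. It was in 24.4% and 64.3% of cone bipolar cells, 10.9% and 43.6% of rods and 5.03% and 18.1% of cones. In cone bipolar cells Mt1 stood at 268 and 888 CPM and Mt2 at 35.0 and 202 CPM. The zinc importer gene Slc39a10 stood at 29.5 and 14.7 CPM and was the one lower gene of 7.

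Glycolysis and lactate genes held 4 lower and 2 higher among 27, with a median of -0.12. The lactate exporter gene Slc16a3 stood at 34.8 CPM (control) and 16.2 CPM (STZ), 2.15-fold lower (1.56 to 3.00). Ldha, which makes lactate, stood at 324 and 166 CPM, 1.95-fold lower (1.77 to 2.16), and Pfkl, a phosphofructokinase, at 111 and 64.1 CPM. Slc2a3, a glucose transporter, stood at 40.6 and 26.5 CPM, while Hk2, a hexokinase, stood at 13.4 and 20.6 CPM and Slc16a1, a lactate carrier, at 10.3 and 15.9 CPM. Gapdh, the most abundant, stood at 2660 and 2587 CPM. The list had 1 higher and 7 lower of 30 in cone bipolar cells, where Ldha stood at 688 and 284 CPM.

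Of 16 genes of apoptosis and p53, 3 were higher and 1 lower. Each of the 3 was measured only through STZ, so nothing is read from their count. Trp53 stood at 7.56 and 15.6 CPM, Gadd45a at 8.32 and 17.9 CPM and Aen at 6.81 and 13.8 CPM, and at a mitochondrial limit of 10% the log2 ratio of Gadd45a was on the other side, at -0.47, and that of Aen was 0.05. Of 28 genes of tubulin and transport, 2 were lower and 1 higher. Tuba1b, an alpha tubulin, stood at 202 and 108 CPM, Tubb4b, a beta tubulin, at 88.0 and 57.3 CPM (log2 ratio 0.15 at a mitochondrial limit of 10%) and Kif22, a kinesin, at 32.3 and 68.8 CPM. Of 76 ribosomal protein genes 1 was lower, Rpl13a at 187 and 116 CPM, and the median was -0.10.

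Of 21 measured genes of glucose and insulin signalling none was past 1.5-fold, with a median of 0.06. The insulin receptor gene Insr stood at 59.2 and 59.1 CPM, the kinase gene Gsk3b at 406 and 490 CPM and Foxo1, a factor held back by insulin, at 9.08 and 13.5 CPM. None of 26 antioxidant genes (median 0.09) and none of 32 genes of the proteasome (median 0.06) was past 1.5-fold. Of 21 genes of autophagy and lysosomes 1 was lower, Hexa, a lysosomal enzyme, at 43.1 and 27.0 CPM. Of 17 circadian genes 1 was lower, Nr1d1, a repressor of the clock, at 343 and 215 CPM. Of 13 cholesterol genes 3 were higher, Idi1 at 7.81 and 14.7 CPM and so measured only through STZ, Msmo1 at 10.3 and 15.6 CPM, and Apoe, also a glial marker, at 180 and 276 CPM.

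Among all genes, a fixed rule named the 12 with the largest ratio in each direction. It took only named genes that reached 50 CPM in one of the libraries and held at least 40 UMIs, with a UMI in at least 20 selected cells, no cell with over 20% of the UMIs, and a level at least 25% of that in cone bipolar cells, rods, cones and Müller glia, so genes with larger ratios, Egr1 among them, lie outside it. Beyond those already given, the higher genes were Sin3b, a corepressor scaffold (49.4 CPM in control, 121 CPM in STZ), Zfp787 (34.0 and 69.6 CPM), Lars, the leucyl-tRNA synthetase (98.3 and 195 CPM), Xpa, of DNA repair (29.5 and 57.3 CPM), and 1 gene named only by its clone. Lars stood at 33.2 and 44.5 CPM in cone bipolar cells.

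The lower genes of that rule began with Magi3, a scaffold protein (114 and 41.4 CPM), Slc5a8, a sodium-coupled carrier of lactate and other monocarboxylates (300.2 and 110 CPM), and Ldb2, a LIM domain cofactor (184 and 69.9 CPM). Slc5a8 was 2.72-fold lower (2.42 to 3.07), and was in 43.3% and 19.1% of thinned cells against 5.12% and 5.05% of cone bipolar cells. Nrep stood at 264 and 123 CPM, Tmeff1 at 70.3 and 29.4 CPM, Ak6 at 65.3 and 27.3 CPM, Adcy1, an adenylyl cyclase, at 59.7 and 25.9 CPM, Mypn at 74.4 and 32.3 CPM, Hivep2 at 74.4 and 32.6 CPM and Rnf123 at 55.5 and 25.9 CPM. Cnmd, listed as a cone bipolar marker, stood at 60.3 and 25.0 CPM, and at 236 and 134 CPM in cone bipolar cells. The cone bipolar values share the control library's preparation and are given side by side only.

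**Figure D5:**
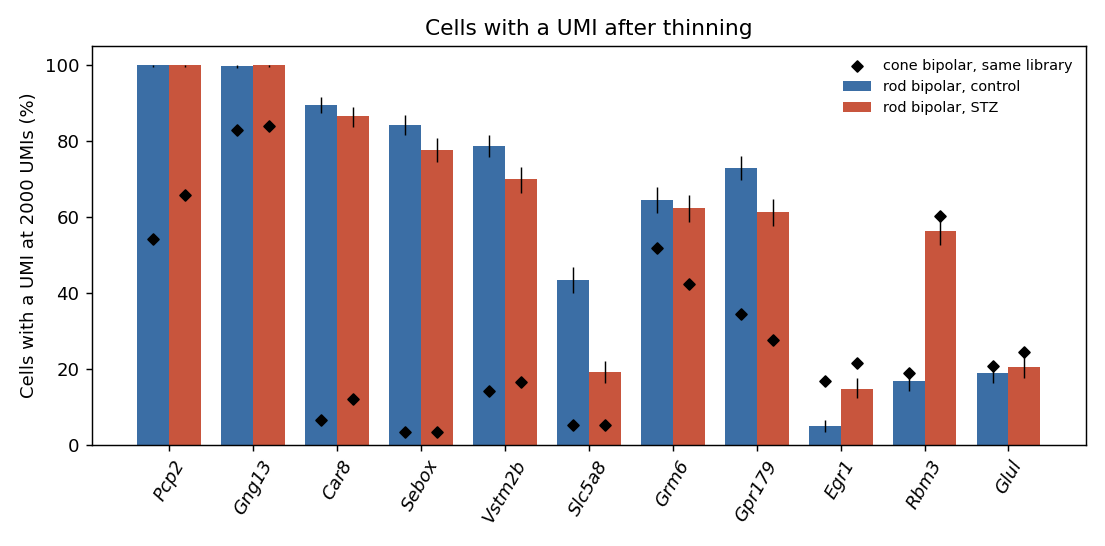
Share of rod bipolar cells with at least 1 UMI of a gene after thinning to 2000 UMIs (bars, with Clopper-Pearson intervals), in control (blue, 815 cells) and STZ (red, 729 cells), with black diamonds for cone bipolar cells of the same library. Slc5a8 was in 43.3% of control and 19.1% of STZ cells, and Rbm3 in 16.7% and 56.2%.

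Genes that set rod bipolar apart from cone bipolar cells were found at 4-fold or more in both libraries, 148 of 7966 genes compared (1.86%). All of the 7966 were measured in rod bipolar cells. Among named genes, other than clone or model names, with at least 50 CPM in both libraries, the largest ratios beside that of Sebox were those of Col27a1, a collagen (122 CPM in control, 110 CPM in STZ), Slc4a4, a bicarbonate carrier (102 and 112 CPM), Il1rap, an interleukin receptor subunit (225 and 200 CPM), Tpbg, a membrane glycoprotein (362 and 205 CPM), Cep112 (338 and 252 CPM), Sdk1, an adhesion protein (140 and 114 CPM), Adamts5, a matrix protease (471 and 303 CPM), Sorl1, a sorting receptor (153 and 97.6 CPM) and Tanc1 (177 and 125 CPM). The highest level of any of these 10 in cone bipolar cells was that of Sebox in control, 15.4 CPM. Tpbg was 1.76-fold lower in STZ (1.61 to 1.93), and Sorl1 and Adamts5 were 1.57-fold and 1.56-fold lower.

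Of these 148 genes 31 were at least 1.5-fold lower in STZ and 9 higher, and 106 were below 0 and 42 above, with a median of -0.29. Since a gene had to pass 4-fold in both libraries to count, the values that chose the genes also enter this ratio, and nothing is read from it beyond the counts. The same holds for the genes chosen in the other direction. There the genes compared were the 8751 measured in cone bipolar cells, so the 2 percentages have different bases. Of these, 467 (5.34%) were at least 4-fold lower in rod bipolar cells in both libraries. Of the 467, 49 were measured in rod bipolar cells, and of those 19 were higher in STZ and 4 lower, 8 of the 19 measured only through STZ. In the marker list of cone bipolar cells 1 of 6 was higher and 1 lower, with a median of -0.11. When free RNA was subtracted by the level of rod genes (19.8% of UMIs in control, 24.6% in STZ), the median of the 148 genes was -0.23. That step took the summed counts of all cells of a library, the rod bipolar cells among them, as its free RNA. It also took every UMI of the rod genes in the selected cells as free, so the percentages rest on these assumptions.

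All 16 rod markers were measured and summed to 3310 CPM (control) and 3934 CPM (STZ), against 122900 and 110200 CPM in rods, with 14 above 0 and 1 past 1.5-fold higher, Cnga1. Of 12 Müller glia markers 8 were measured, all above 0 and 4 past 1.5-fold higher, and the list summed to 494 and 736 CPM against 44370 and 43080 CPM in Müller glia. Of the 4 higher, 1 stood under 10 CPM in control and was measured only through STZ, so its part in that count was fixed by the minimum. Of 11 cone markers 8 were measured, 2 higher and 1 lower, with sums of 452 and 581 CPM. The 1 lower was measured only through control. Pde6h, Arr3 and Gnat2, which the selection held down, are among the 11, so nothing is read from these values. Of 20 cone bipolar markers 6 were measured, with sums of 296 and 273 CPM against 5133 and 4365 CPM in cone bipolar cells. These sums include Scgn, which took part in choosing both kinds of cell. Erythrocyte markers summed to 1.01 and 12.1 CPM with 2 of 5 at 0 in both, and microglia markers to 2.77 and 6.47 CPM. The part of these transcripts in the results above was not tested.

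The cells varied most in transcripts of this kind. By Fano factor (variance over mean of UMIs per thinned cell), the median gene stood at 1.03 in both libraries, and Apoe, a glial lipid carrier, stood at 9.20 in control and 9.64 in STZ, and Malat1, a nuclear RNA, at 7.82 and 8.23. The rod genes Pde6g, Pdc, Gngt1 and Gnb1 and the glial genes Clu and Glul followed. Pcp2 was the only gene of the bipolar cells' own cascade among the 10, at 2.56 and 3.15. At 2000 UMIs a cell held a median of 1136 genes in control (1131 to 1142, 815 cells, 15 shallower cells left out) and 1113 in STZ (1107 to 1118, 729 cells, 15 left out), a ratio of 0.98.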

How the data were processed

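The authors deposited raw UMI counts of 17087 genes in 19562 cells, whose names end in a tag for the library. Cell Ranger 3.0.1, Seurat 3.0 and build mm10 are named in the submitters' processing notes. The counting settings, strand included, are not given in the sources used here, so reads of overlapping or near-identical genes may be shared. No cell holds over 2999 genes. Counts were summed over selected cells per library and scaled by all their UMIs (CPM). Ratios carry conditional binomial intervals, sums exact Poisson intervals and shares Clopper-Pearson intervals, and a count of 0 was set to 3. UMIs are taken as independent. Doublets were scored with Scrublet (scanpy 1.11.5) for an alternative only, and other work used Python 3.11.15. Calculations were tested on simulated data. Named genes follow a rule: all measured markers, cascade genes and transcription factors, up to 4 genes of each other list with the largest ratio plus its most abundant one, the 12 largest ratios each way (within the limits given with them), and the 10 genes of largest ratio to cone bipolar cells or Fano factor. Where a count of 5 or fewer needed it, the other members were named after their values were seen, as were Fos, Insr and the genes with the ER stress element. The members and lists were chosen with earlier results of these data known. Positions are from GENCODE on mm10. There were 0 columns of no known sample. Some genes that these rules select are not reported here.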

Additional observations from a re-analysis of the deposited data

Results flagged for a closer look

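Among the 7662 genes measured in both kinds of bipolar cell, 8 were past 1.5-fold in opposite directions. The difference was not tested and rests on 1 library per group. Over all genes measured in each kind, 5.57% were higher and 5.87% lower in rod bipolar cells, and 5.78% and 6.47% in cone bipolar cells. Genes past the fold in the same direction in both were not counted, so 8 is not read as few or many. Efr3b, at the membrane, had a log2 ratio of STZ over control of -0.60 in rod bipolar cells and 0.86 in cone bipolar cells, and stood at 186 and 123 CPM in the first and at 8.18 and 14.8 CPM in the second. Apoa2, an apolipoprotein, had -0.63 and 0.71, and Pnp, of purine breakdown, -0.67 and 0.94. On the other side, Vwc2l had 0.65 and -0.78, Pmepa1 0.74 and -0.66, Slc33a1 0.59 and -0.98, Hacd2 0.64 and -0.68, and Tap2 0.72 and -0.71. These 5 genes stood at 22.3 CPM or less in rod bipolar cells of both libraries. Vwc2l, Hacd2 and Tap2 stood at 9.58, 9.83 and 8.57 CPM in control, so they were measured in rod bipolar cells only through STZ. Efr3b and Pnp each stood at 8.18 CPM in control cone bipolar cells and were measured there only through STZ. The part of these genes in the count was thus fixed by the minimum, and nothing is read from it.

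The cells removed by the mitochondrial limit entered the comparison of gene levels only in alternatives. Of the cells with over 20% mitochondrial UMIs, 26.2% (24.6 to 27.9%) in STZ met all other limits of the rod bipolar selection, against 17.96% (16.2 to 19.8%) in control. They held 918 CPM of Car8 and 13100 CPM of Pcp2 in STZ and 900 and 10710 CPM in control.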

How the results depend on the processing

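No paired analysis was possible because each group has 1 library, and for the same reason no replicate could be left out. The log2 ratio of the rod bipolar share, -0.61, was -0.27 when cells were thinned to 2000 UMIs before selection, -0.38 in cells of 2000 to 6000 UMIs, -1.40 with a mitochondrial limit of 10% and -0.14 without one, an alternative chosen after seeing the data. Of the counts of 444 genes higher and 468 lower, a limit of 10% gave 988 and 1033, thinning to 800 UMIs 717 and 789, a minimum of 50 CPM 68 and 125, and a minimum of 1 UMI in both libraries 2295 and 1645, where the number of genes or cells differs by construction. Cells over 20% mitochondrial alone, also added later, gave 727 higher and 420 lower. The median of the endoplasmic reticulum list, -0.44, was -0.064 at a limit of 10%, and that of the immediate-early list, 0.34, was 0.012 from 50 CPM and 0.090 from 1 UMI. The cause of these shifts was not tested. Under the other alternatives run there were 326 to 595 genes higher and 391 to 623 lower, and which direction held more genes differed, with 595 and 446 where mitochondrially encoded genes were left out of CPM, 506 and 443 at 2 UMIs of Prkca and Trpm1, and 489 and 623 with free RNA subtracted. Over all alternatives the median of the cascade was -0.07 to 0.05 and that of the heat shock list -0.55 to -0.35. Of 1382 values of named genes past 1.5-fold over the 17 alternatives, 1371 kept their direction, 151 of them under 1.5-fold. Alternatives that changed only the minimum for a measured gene left each of these values as it was. Scaling to the median ratio, or leaving mitochondrially encoded genes out of CPM, moved all log2 ratios by the same small amount. The directions under these alternatives were thus fixed beforehand, and their part in the 1371 says nothing about the genes. Of the values of all named genes 59 moved by 1.5-fold or more. With a limit of 10% the log2 ratio of Aen went from 1.02 to 0.047, of Slc39a10 from -1.005 to -0.15, of Xpa from 0.96 to 0.198 and of Xbp1 from -0.89 to -0.25, and in cells over 20% mitochondrial that of Tmeff1 went from -1.26 to -0.34. With a limit of 10% the log2 ratio of Cnga1 was -0.041, of Creld2 0.72, of Fosb -0.95, of Gadd45a -0.47 and of Tubb4b 0.15. Thinned to 800 UMIs it was 0.16 for Creld2 and -0.012 for Slc12a2, with at least 6 UMIs of Prkca and Trpm1 it was -0.11 for Pmepa1, and in cells over 20% mitochondrial it was -0.38 for Hacd2, -0.13 for Msmo1 and -2.21e-05 for Vwc2l.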
